A study of Mus musculus with 2 samples.

Results

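The 10 listed microRNA genes of the mouse Dlk1-Dio3 domain, Mir493, Mir337, Mir540, Mir665, Mir431, Mir433, Mir127, Mir434, Mir136 and Mir370, were described in the embryonic lung. They are genes of the domain that lie near the protein-coding gene Rtl1, upstream of the large Mir379 to Mir410 cluster. The rule that chose them used name and position and no measured value, but earlier results of these data were known. Rows of the count tables were matched to them by gene identifier, without its version, through the gene names of GENCODE release M21. Of the 10 genes, 9 had a row, out of 1973 gene rows in all, and Mir136 had no row under its identifier.

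Small RNA of under 30 bases was sequenced from lungs of mouse embryos of strain B6NCrl at embryonic day 16.5, healthy and with no allele or treatment named. The 2 libraries form 1 group and are labelled biological replicates 1 and 2. Each is a pool of male and female embryos, 41 of them for replicate 2, with no number given for replicate 1. No condition can therefore be compared, and the comparisons are among genes and between the libraries.

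The Dlk1-Dio3 domain is imprinted: each of its genes is transcribed from the chromosome of only one parent. The protein-coding genes Dlk1, Rtl1 and Dio3 are active on the paternal chromosome, while the noncoding transcripts Meg3, antisense Rtl1, Rian and Mirg, which carry the microRNAs and small nucleolar RNAs, come from the maternal one. Rtl1 is a retrotransposon-derived gene that the placental capillaries need. A microRNA hairpin is cut into a 5p and a 3p form, and bases 2 to 8 of the loaded form, the seed, choose most targets. A microRNA transcribed from the strand opposite to an mRNA is fully complementary to it and can direct its cleavage.

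Of the listed genes 5, Mir431, Mir433, Mir127, Mir434 and Mir136, lay on the plus strand of chromosome 12 within the single coding exon of Rtl1, which is on the minus strand at chr12:109589193-109600330 (mm10). Their mature forms are shown because they carry the property that separates them from the other members. The sequences are those of RefSeq on GRCm38.p6, 5′ to 3′, with the seed in capitals, and all 10 listed genes matched an entry there.
miR-127-3p: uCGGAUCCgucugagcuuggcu
miR-127-5p: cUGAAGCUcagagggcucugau
miR-431-3p: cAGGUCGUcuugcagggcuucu
miR-431-5p: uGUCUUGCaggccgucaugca
miR-433-3p: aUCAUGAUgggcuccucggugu
miR-433-5p: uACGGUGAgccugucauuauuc
miR-434-3p: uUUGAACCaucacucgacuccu
miR-434-5p: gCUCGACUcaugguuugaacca
miR-136-3p: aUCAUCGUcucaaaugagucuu
miR-136-5p: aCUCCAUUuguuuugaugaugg

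The reverse complement of each of these 10 forms occurred once, over its full length, in the coding sequence of Rtl1, which holds 1744 codons. The 10 forms of the other 5 genes had no full-length match in the Rtl1 transcript. The matches are spread along the reading frame, from codons 6 to 13 for miR-136-3p to codons 1642 to 1649 for miR-431-5p. The sites of the forms of Mir127 and Mir431 are shown as examples, as DNA of the Rtl1 strand 5′ to 3′, with the bases opposite the seed in capitals. They lie at codons 832 to 839 (miR-127-3p), 843 to 850 (miR-127-5p), 1627 to 1634 (miR-431-3p) and 1642 to 1649 (miR-431-5p).
Rtl1 site for miR-127-3p: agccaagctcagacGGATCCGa
Rtl1 site for miR-127-5p: atcagagccctctgAGCTTCAg
Rtl1 site for miR-431-3p: agaagccctgcaagACGACCTg
Rtl1 site for miR-431-5p: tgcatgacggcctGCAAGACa

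The seeds of the 20 mature forms of the 10 genes were all distinct, so no pair of members shared one. A seed shared with another mouse gene was found for 2 forms, both of members outside Rtl1. The seed of miR-540-3p is also that of miR-6915-5p, whose gene had no row. The seed of miR-370-5p is also that of miR-1193-3p, and Mir1193, in the Mir379 to Mir410 cluster, was measured at 1017 and 1222 CPM. Both forms of Mir337, the most abundant member outside Rtl1, are shown with these 2.
miR-337-3p: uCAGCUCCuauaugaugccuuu
miR-337-5p: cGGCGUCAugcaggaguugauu
miR-540-3p: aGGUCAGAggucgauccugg
miR-370-5p: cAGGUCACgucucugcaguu

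The tables count reads per gene, so the 5p and the 3p form of one hairpin cannot be told apart in any value given here. Levels are in CPM, counts scaled to a total of 1000000 over all gene rows, and rest on 6376715 gene counts in replicate 1 and 4123748 in replicate 2. A count of 0 allows up to 0.470 and 0.727 CPM. Since reads are as short as the mature RNA, CPM was not divided by gene length. Levels of different genes are compared as read counts, and whether different microRNAs were read equally well was not tested. Genes with 10 or more counts in both libraries, 347 in all, are called detected. All 9 members with a row were detected, none shared a run of 22 bases with another microRNA gene, and all but 3 of their counts in each library were on the sense strand. Of markers of lung cell types, the endothelial Mir126a stood at 87277 and 79120 CPM. The other endothelial genes with a row were far lower, Mir221 at 286 and 303 CPM and Mir222 at 160 and 151. All 6 epithelial and all 6 mesenchymal or smooth muscle genes with a row were detected. The latter ran from Mir143 at 70224 and 72270 CPM down to Mir199a-1 at 5.96 and 5.33 CPM. Mir199a-1 has copies, and reads matching several loci were counted to no gene, so its level can be understated.

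The members antisense to Rtl1 were the most abundant of the set on the whole, led by Mir127. Mir127, at chr12:109592846-109592915 and known as a regulator of Rtl1, had 6013 CPM in replicate 1 and 6562 in replicate 2, a mean of 6288 ± 388 (SD, n = 2). Mir431, at chr12:109590447-109590537 and known in muscle stem cells as a repressor of Pax7, had 2767 and 3311 CPM (3039 ± 384). Both libraries placed these genes first and second, at ranks 28 and 50 by mean among the 347 detected genes.

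Mir434, at chr12:109594506-109594599, had 1248 and 1423 CPM, a mean of 1335 ± 124. Mir433, at chr12:109591715-109591838, had 549 and 711 CPM (630 ± 115). Mir433 had the largest relative spread between the libraries of the 9 members, and was the only antisense member that lay below a member outside Rtl1 within a library.

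**Figure D1:**
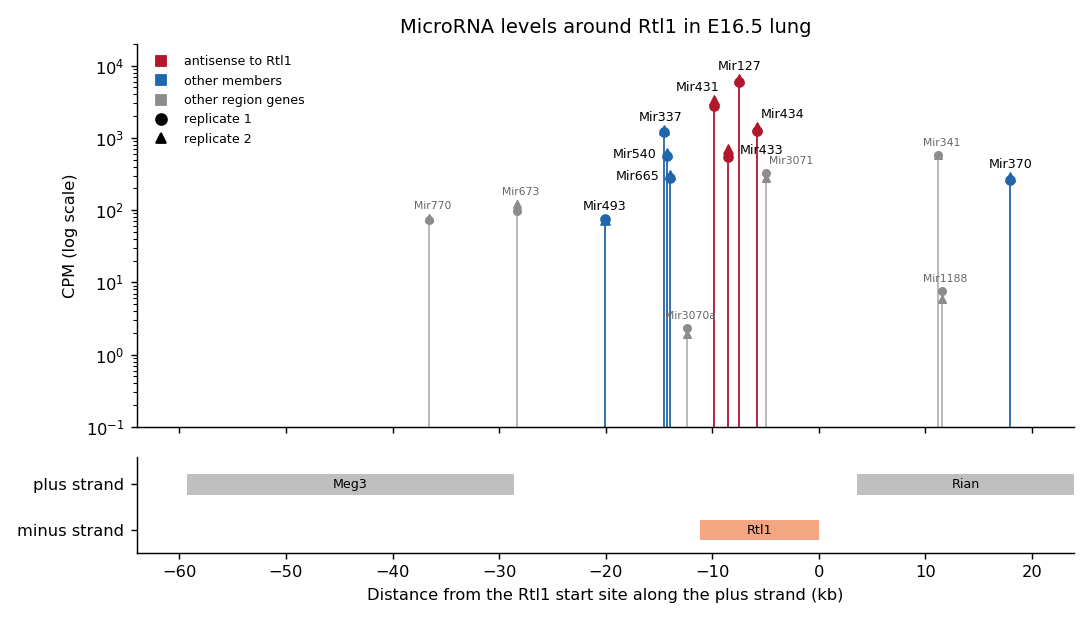
CPM (log scale) of each gene of the region with counts in both libraries, in replicate 1 (circles) and replicate 2 (triangles), by distance in kb from the Rtl1 start site along the plus strand, with the spans of Meg3, Rtl1 and Rian below (Rian continues to the right). The 4 measured members antisense to Rtl1 (red) reach 6562 CPM at Mir127, and Mir493 is the lowest of the other members (blue).

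Outside Rtl1, the 3 neighbours Mir337, Mir540 and Mir665 lay close together on the plus strand, with gaps of 194 and 167 bases between them, but at different levels. Mir337, at chr12:109585789-109585885, had 1196 and 1274 CPM (1235 ± 54.9). Mir540, at chr12:109586080-109586146, had 554 and 627 CPM (590 ± 51.3). Mir665, at chr12:109586314-109586407, had 283 and 308 CPM (296 ± 18.1). The order Mir337, Mir540, Mir665 held in both libraries with no overlap. Mir337 was 2.16-fold (95% interval 2.07 to 2.25) and 2.03-fold (1.94 to 2.13) above Mir540. Mir540 was in turn 1.96-fold (1.85 to 2.07) and 2.03-fold (1.90 to 2.17) above Mir665. In read counts, each step was thus close to a doubling in both libraries. These intervals cover counting error only, not differences in how well each microRNA was read.

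The outermost members were the least abundant. Mir370, at chr12:109618258-109618336 within the span of Rian, had 259 and 287 CPM (273 ± 19.9). Mir493, at chr12:109580233-109580315 and the member nearest Meg3, had 75.9 and 73.0 CPM (74.4 ± 2.06). Mir493 was the only member below the median of all detected genes, 180 CPM, and ranked 203.

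**Figure D2:**
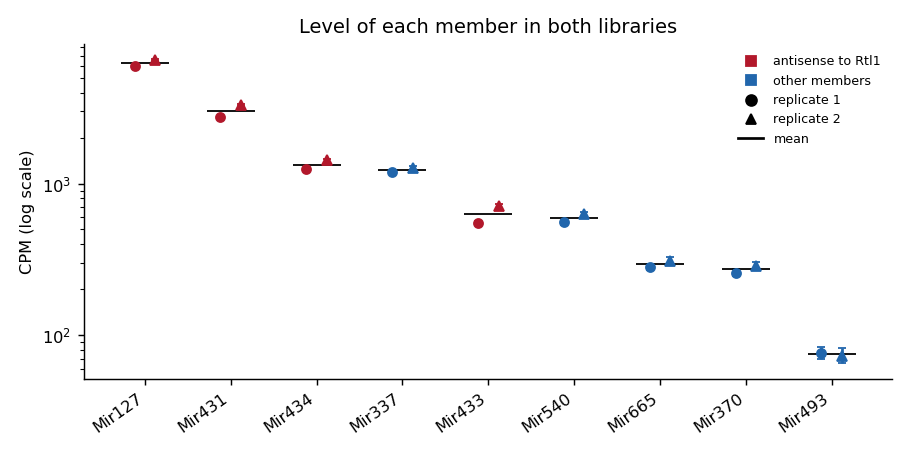
CPM (log scale) of the 9 measured members, ordered by mean, in replicate 1 (circles) and replicate 2 (triangles), with exact 95% intervals for counting error and the mean as a bar. Mir127 stands at 6013 and 6562 CPM and Mir493 at 75.9 and 73.0 CPM.

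From the highest to the lowest, the order by mean was Mir127, Mir431, Mir434, Mir337, Mir433, Mir540, Mir665, Mir370 and Mir493. Of the 36 pairs, 35 had the same order in both libraries. The exception was Mir433 and Mir540, where Mir540 was slightly higher in replicate 1 and Mir433 in replicate 2. The ranges over the libraries overlapped in 3 pairs, which were neighbours in this order: Mir434 and Mir337, Mir433 and Mir540, and Mir665 and Mir370. Mir127 exceeded Mir493 by 79.2-fold (95% interval 72.4 to 86.8) in replicate 1 and by 89.9-fold (80.2 to 101) in replicate 2.

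**Figure D3:**
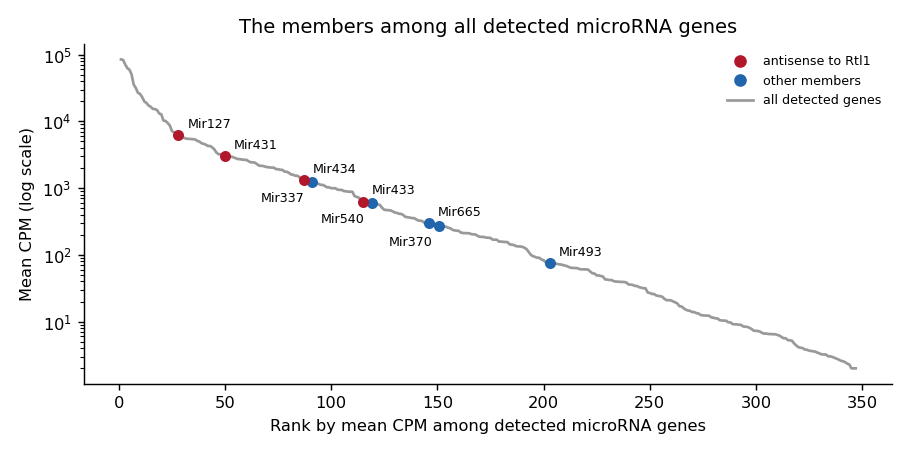
Mean CPM (log scale) against rank for the 347 detected microRNA genes (grey line), with the 9 measured members as points, red for those antisense to Rtl1 and blue for the others. The members run from rank 28 (Mir127) to rank 203 (Mir493).

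Together the 9 members held 1.29% of gene counts in replicate 1 (exact Clopper-Pearson 95% interval 1.29 to 1.30) and 1.46% in replicate 2 (1.45 to 1.47), a mean of 1.38% ± 0.115 (SD, n = 2). The 4 antisense members held 1.06% (1.05 to 1.07) and 1.20% (1.19 to 1.21), and the 5 others 0.237% (0.233 to 0.241) and 0.257% (0.252 to 0.262). Mir127 alone made up 46.5% and 45.0% of the members' counts, and Mir431 a further 21.4% and 22.7%.

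The summed level of the antisense members was 4.47 times (4.39 to 4.55) that of the others in replicate 1 and 4.67 times (4.58 to 4.77) in replicate 2. On the log2 scale the ratio was 2.19 ± 0.0462 (SD, n = 2). Without Mir127 the ratio was 1.93 and 2.12, and Mir127 alone was 1.32 and 1.21 times the other 3 antisense members together. The groups of genes overlapped, because Mir433 was below Mir337 in both libraries. Genes of one domain share transcripts and are not replicates, so the groups were not tested against each other.

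Mir136, the fifth gene antisense to Rtl1 (chr12:109595327-109595388), was not analysed here under its own identifier. A row of the tables carries the identifier that release M21 names Mir3071, a hairpin on the minus strand at chr12:109595318-109595397 that spans Mir136. The row was at 325 CPM in replicate 1 and 277 in replicate 2, with 2069 and 1143 of its 2071 and 1143 counts in the sense column. Its version in the tables is older than in M21, and the strand that release M4 gave it is not known from the sources used here. These counts can therefore not be assigned to Mir136 or to Mir3071. The mature forms of the 2 hairpins overlap on opposite strands by 19 bases (miR-136-3p and miR-3071-5p) and 20 bases (miR-136-5p and miR-3071-3p), as the forms of Mir3071 show beside those of Mir136 given above.
miR-3071-5p: aCUCAUUUgagacgaugaugga
miR-3071-3p: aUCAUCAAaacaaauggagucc

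Among the other microRNA genes of the region, Mir341 had the highest level, with 573 CPM in both libraries. Mir770 had 73.1 and 78.1 CPM, close to Mir493. Mir673 had 98.3 and 122 CPM, and Mir1188 had 7.68 and 5.82. Mir3070a, which shares a run of 22 bases with Mir3070b, had 15 and 8 counts, and Mir3070b had 1 and 0. Mir432, which also lies opposite the Rtl1 coding exon, and Mir882 had 0 counts in both libraries, and Gm23912 had 1 and 0. A position opposite Rtl1 thus did not go with a high level in each case. Mir3544, on the strand opposite to Mir337, had no row.

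The libraries were compared gene by gene: an exact binomial test, two-sided and conditional on a gene's summed counts, set them against the library totals, and p-values were adjusted by Benjamini-Hochberg over the 347 detected genes. This test compares the reads of these libraries, weighs counting error only and has no replicate check. It called 8 of the 9 members at an adjusted p under 0.05, all higher in replicate 2, while over all detected genes it called 47.0%, with 30.5% higher in replicate 2 and 16.4% higher in replicate 1. The differences were small: only Mir433 passed 1.25-fold, as did 23.1% of all detected genes.

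Mir433 was 1.30-fold higher in replicate 2 (95% interval 1.23 to 1.36, exact binomial test, adjusted p = 5.83e-24). Mir431 was 1.20-fold higher (1.17 to 1.22, adjusted p = 3.54e-54, exact binomial test). These antisense members were the 2 that lay outside the middle 50% of detected genes. Mir434 followed at 1.14-fold (1.10 to 1.18), Mir540 at 1.13-fold (1.07 to 1.19), Mir370 at 1.11-fold (1.03 to 1.20), Mir127 and Mir665 at 1.09-fold (1.07 to 1.11 and 1.01 to 1.17) and Mir337 at 1.06-fold (1.03 to 1.10). Mir493 was not called, with a fold of 0.962 (0.830 to 1.11, exact binomial test, adjusted p = 0.702). The median log2 ratio of replicate 2 over replicate 1 was 0.15 over the members and 0.05 over all detected genes, whose middle 50% ran from -0.11 to 0.19.

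The number of calls depended on the scaling. With edgeR's TMM library sizes 5 members were called, Mir540, Mir431, Mir433, Mir127 and Mir434, and the split over all detected genes moved from 106 higher in replicate 2 and 57 higher in replicate 1 to 75 and 78. DESeq2 size factors called the same 5 members, with a split of 80 and 76. Mir665 was also not called with all reads of the tables as the denominator or with a count minimum of 1. The direction of each of the 9 members was the same under these scalings. The row named Mir3071 went the other way: it was 1.17-fold higher in replicate 1 (1.09 to 1.26, exact binomial test, adjusted p = 5.63e-05).

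**Figure D4:**
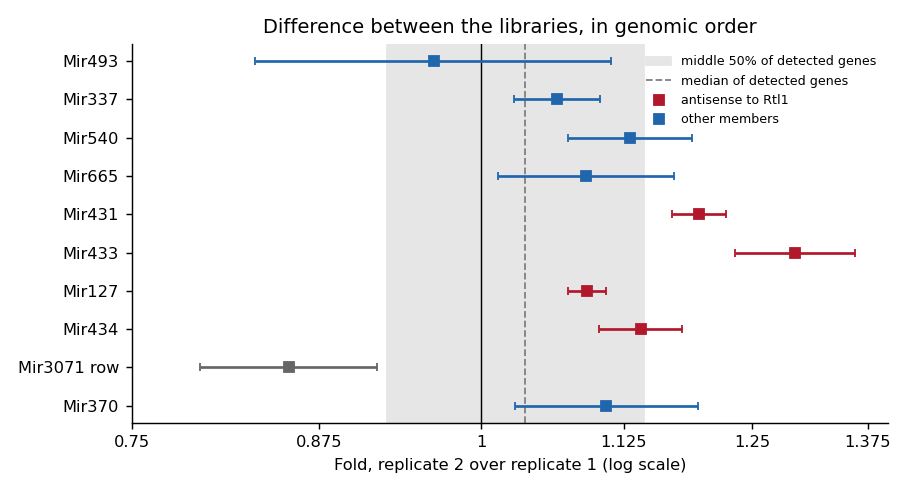
Fold of replicate 2 over replicate 1 (log scale) for the 9 measured members and the row named Mir3071 (grey), in genomic order, with exact 95% intervals. The shaded band is the middle 50% of detected genes and the dashed line their median. Mir433 (1.30) and Mir431 (1.20) lie to the right of the band and the row named Mir3071 to its left.

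Some markers of other cells also differed between the libraries, as did many detected genes. Over all 347 detected genes the test called 30.5% higher in replicate 2 and 16.4% higher in replicate 1. The 5 multiciliated cell genes, all detected, summed to 1.55% of gene counts in replicate 1 and 1.96% in replicate 2. Mir449a made up most of this sum, at 14580.5 and 18444.9 CPM. Of the 5 genes 3 were called higher in replicate 2, and Mir449b stood at 21.3 and 20.6 CPM. The liver genes (3 of 4 detected) summed to 0.0216% and 0.0695%, with the hepatocyte microRNA Mir122 at 111 and 601 CPM. The other detected liver genes did not share this rise, with Mir192 at 65.2 and 62.3 CPM and Mir194-2 at 37.3 and 31.3. Those of striated muscle (5 of 8 detected) summed to 0.108% and 0.120%, with Mir1a-1, Mir133a-1 and Mir133a-2, which have copies, at 0. Of the 5 detected muscle genes 2 were called higher in replicate 2 and 2 in replicate 1, with a median log2 ratio of -0.08. Mir206 stood at 294 and 643 CPM and Mir133b at 3.29 and 9.94, while Mir208a was at 536 and 324, Mir208b at 225 and 200.3 and Mir499 at 24.2 and 22.8. The neural genes (6 of 11 detected) summed to 0.0455% and 0.0551%, with Mir124a-1 and Mir9-2, which have copies, at 0 in both libraries. Of the 6 detected, 2 were called higher in replicate 2. Mir128-1 stood at 66.6 and 114 CPM and Mir128-2 at 14.3 and 39.5. Mir132 was at 222 and 239, Mir137 at 139 and 142, Mir129-1 at 6.74 and 8.73 and Mir129-2 at 5.65 and 4.85. Mir128-1, Mir128-2, Mir129-1 and Mir129-2 have copies, as do Mir194-2 of the liver genes and Mir486 of the blood genes. The counts of all these genes leave out reads that match several loci. Genes of blood cells, 6 of 6 detected, summed to 0.185% and 0.152%, with 2 called higher in replicate 2 and 2 in replicate 1. Mir451a stood at 747 and 408 CPM, Mir144 at 278 and 232 and Mir486 at 21.8 and 19.9. In contrast, Mir223 was at 697 and 740, Mir155 at 63.2 and 75.7 and Mir150 at 39.5 and 40.0. The part of these cells in the members' differences was not tested, and in whole tissue fewer cells of a type and less RNA per cell cannot be told apart.

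The most alike genes are those of the Mir379 to Mir410 cluster, further downstream on the same strand, of which 33 had a row and 28 were detected. They held 3.60% of gene counts in replicate 1 (95% interval 3.58 to 3.61) and 3.77% in replicate 2 (3.75 to 3.78), which is 2.78 and 2.58 times the sum of the members. Gene by gene the members were the higher set in the middle: the median mean level was 630 CPM over the 9 members and 231 CPM over the 28 detected cluster genes. This list leaves out rows annotated on the minus strand, whose counts were nearly all in the column of the opposite strand. Their mean levels were above 231 CPM: Mir299b 2061, Gm25750 665, Gm25252 2409 and Gm24321 5091. With these rows, added after seeing the data, the mean share of the list was 4.70% instead of 3.68%. The 2 highest genes of the cluster were Mir411, at 9716 and 9197 CPM, and Mir487b, at 4887 and 6112 CPM. Mir127 lay between them by mean level. In the test between the libraries replicate 2 was higher for 11 of the 28 and replicate 1 for 2. Of the 9 members these were 8 and 0. The test thus called 46.4% of the detected cluster genes, near the 47.0% of all detected genes. The median log2 ratio over the cluster was 0.09. The difference between the members and the cluster was not tested.

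The base composition of the hairpins overlapped between the members antisense to Rtl1 and the others. The GC content of the 5 antisense hairpins ran from 40.3% to 60.4% with a median of 56.5%, and that of the 5 others from 52.6% to 61.2% with a median of 53.2%. The hairpins ranged from 62 to 124 bases and from 67 to 97 bases. All 5 antisense hairpins had their reverse complement in the Rtl1 transcript.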

How the data were processed

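Small RNA was measured in 2 libraries of embryonic lung. The authors deposited raw counts of reads per microRNA gene, per the file headers on mm10 with GENCODE M4, and the aligner and counter were not given in the sources used here. Column 2 of each table was used, which equals the sum of both strand columns in 1973 of 1973 rows. Counted to genes were 49.6% and 48.8% of the reads in the tables, and reads matching several loci were 30.0% and 31.8%. The latter were counted to no gene, so genes with copies can be understated beside the members in levels, ranks and shares. Symbols came from M21 (1894 of 1973 identifiers matched) and sequences from RefSeq and the M21 transcripts. Intervals are exact at 95% and cover counting error only, since reads are not independent molecules. A single group allows no quasi-likelihood test, so edgeR 4.0.16 and DESeq2 1.42.0 (R 4.3.3) gave scaling factors only. Python 3.11.15, numpy 2.4.6, scipy 1.17.1 and pandas 2.3.3 did the rest, and the test and its intervals were run on simulated data, where the criterion set for interval coverage was missed at 1.25-fold in the first run and then relaxed to coverage pooled over fold sizes. Named are the members, genes overlapping them or Rtl1, other genes of the region and the 2 highest of the Mir379 to Mir410 list. The members and lists were chosen with earlier results of these data known. Alternatives covered the count column, minimum, scaling, denominator and each replicate left out. Added after seeing the data were DESeq2 factors from detected genes only, the row named Mir3071, leaving out Mir127, and opposite-strand rows.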

Additional observations from a re-analysis of the deposited data

Results flagged for a closer look

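Within the Mir379 to Mir410 cluster, 4 rows annotated on the minus strand had nearly all their counts in the column of the opposite strand, a column that the comparisons above do not use on its own. Mir299b had 12469 such counts in replicate 1 and 8905 in replicate 2. Gm25750 had 4210 and 2766, and Gm25252 had 16039 and 9496. Gm24321 had 33540 and 20299. The 9 members together had 3 counts on the opposite strand in each library.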

How the results depend on the processing

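Of 43 alternatives for the summary results, 35 left the value within 1.5 times for a count, or within the spread between libraries (for the median log2 ratio, between members), 8 moved it and 0 reversed it. With a replicate left out, a mean over the libraries always stays within their SD. Those alternatives could therefore not move a share, the log2 ratio or the fold, and are no check of stability. The number of members called fell from 8 to 5 with edgeR TMM sizes, with DESeq2 size factors, and with DESeq2 factors from detected genes only (chosen after seeing the data). Over all reads of the tables the members' share was 0.676% and that of the Mir379 to Mir410 list 1.81%, since the denominator is larger. Leaving out Mir127, also chosen after seeing the data, gave a share of 0.747% and a log2 ratio of antisense to other members of 1.02. Adding the 4 opposite-strand rows raised the share of the Mir379 to Mir410 list to 4.70%. Of 63 alternatives for the CPM of single members, 54 stayed within the spread and 9 moved, all of them with all reads as the denominator. Those with a replicate left out again could not move. The TMM and DESeq2 sizes were scaled to the geometric mean of the gene totals, so a mean CPM could hardly move with them. For these settings the tally is no check of stability. No paired analysis was possible because the series holds a single group. With 2 libraries the SD has little precision, and depth limited the interval most for Mir493.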
